A study of Rattus norvegicus with 6 samples.

Results

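The 3 genes described here encode the precursors of the classical opioid peptides: prodynorphin (Pdyn, ENSRNOG00000026036), proenkephalin (Penk, ENSRNOG00000008943) and pro-opiomelanocortin (Pomc, ENSRNOG00000012686). They were taken by identifier, not by a cut on their values, from the 32402 genes of the count table. Earlier results of these data were known when they were chosen. All 3 passed the filter on low counts that left 16344 genes for testing. The identifiers were paired with symbols outside the deposited table, which lists identifiers alone.

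Opioid precursors are cut at paired basic residues by prohormone convertases inside secretory granules, and each yields several peptides. Dynorphins act mainly at the kappa receptor, enkephalins at the delta and mu receptors, and beta-endorphin at the mu receptor, all of which couple to inhibitory G proteins. In the hypothalamus prodynorphin is made in magnocellular neurons together with vasopressin, and proenkephalin in parvocellular and some magnocellular neurons. The cell bodies that make pro-opiomelanocortin, which also gives the melanocortin alpha-MSH and, in the pituitary, corticotropin, lie mainly in the arcuate nucleus and send axons to the paraventricular nucleus.

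RNA was sequenced from the paraventricular nucleus (PVN), the hypothalamic nucleus that holds vasopressin, oxytocin and corticotropin-releasing neurons, of male Holtzman rats, a laboratory stock. Furosemide rats were injected with 10 mg/kg of this loop diuretic, which makes the kidney lose sodium, and were then kept on food low in sodium and distilled water over 24 h. What the control rats received is not given in the labels, so the drug and the food and water cannot be told apart. Wherever a difference after furosemide is given, the whole regimen is meant. Each group had 9 rats in 3 pools of 3, and each pool gave 1 library, so the spread between libraries is a spread between averages of rats. The sources used here do not say whether the groups were dissected or sequenced together. Library totals were 20911950 to 21669388 counts in controls and 21950410 to 22495415 after furosemide. The dissection was not checked against markers of the PVN or its neighbours, because no other identifier could be paired with a symbol.

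None of the 3 opioid precursors passed the test between groups. Pdyn was on average slightly lower after furosemide (0.941-fold), Penk slightly higher (1.07-fold) and Pomc higher by a larger but less certain margin (1.18-fold). The edgeR quasi-likelihood test with Benjamini-Hochberg adjustment called 0 of 3 members, against a background of 0% of the 16344 genes. Run on these 16344 genes, the exact test of edgeR gave 15 higher and 30 lower, and DESeq2 18 and 21. With sample quality weights limma-voom gave 0 and 0. No member was among the genes called, but DESeq2 gave Pomc no adjusted p and so did not set it against the threshold. Before adjustment, 0 of 3 members had a quasi-likelihood p under 0.05, against 8.09% of the tested genes. The control and furosemide libraries overlapped for all 3, whereas 13.5% of tested genes had groups that did not overlap.

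Levels are in CPM, the reads of a gene relative to its TMM-adjusted library total, with an exact Poisson 95% interval where the counting error of 1 library matters. Prodynorphin, the dynorphin precursor, was the only member with a lower mean after furosemide. Pdyn stood at 274, 240 and 272 CPM in control pools 1, 2 and 3, and at 252, 227 and 259 CPM in furosemide pools 1, 2 and 3. Furosemide pool 2 was the lowest of the 6, control pool 2 the next, and the other 2 furosemide pools lay between control pool 2 and the other controls. Control pools averaged 262 ± 18.6 CPM and furosemide pools 246 ± 16.7 CPM (mean ± SD, n = 3 each). The difference of -15.5 CPM was smaller than the distance between the highest and lowest control pools, 33.2 CPM. On the log2 scale the change was -0.09 ± 0.05 (SE), with 95% limits at -0.20 and 0.03 and an edgeR adjusted p of 0.710. As a ratio, the interval ran from 0.868-fold to 1.02-fold. The test draws the spread between pools toward that of other genes, and that of Pdyn was above most at its level. The interval is therefore narrower than the 6 pools alone would give. With robust dispersions the SE was 0.062, against 0.054 here.

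Proenkephalin, the enkephalin precursor, differed in the opposite direction. Penk stood at 241, 262 and 224 CPM in control pools 1, 2 and 3, and at 243, 268 and 267 CPM in furosemide pools 1, 2 and 3. Furosemide pools 2 and 3 were the highest of the 6, but control pool 2 lay above furosemide pool 1. Control pools averaged 242 ± 19.2 CPM and furosemide pools 260 ± 14.1 CPM (mean ± SD, n = 3 each), and the control pools alone spanned 38.3 CPM against a difference of 17.2 CPM between groups. The log2 change was 0.10 ± 0.05 (SE), with 95% limits at -0.01 and 0.21 (adjusted p = 0.679 in edgeR). The interval reached from 0.990-fold to 1.16-fold, and it too is narrower than the 6 pools alone would give. With robust dispersions the SE was 0.059, against 0.053 here.

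For both transcripts the interval therefore lay inside 1.5-fold in either direction, as it did for 85.1% of all tested genes and for 2149 of the 2152 with a mean of 100 to 1000 CPM. These bounds are on the average over the pooled tissue. In such tissue fewer cells making a transcript and less transcript per cell cannot be told apart, and opposite changes in different cells would cancel.

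Pro-opiomelanocortin was counted at low depth, with 49, 36 and 32 reads in control pools 1, 2 and 3 and 36, 52 and 56 reads in furosemide pools 1, 2 and 3. In CPM, Pomc stood at 2.27, 1.67 and 1.54 in the controls and at 1.60, 2.38 and 2.51 after furosemide. Furosemide pools 2 and 3 were the highest, while furosemide pool 1 lay among the lower controls. The counting intervals of the lowest and highest pools overlapped, at 1.05 to 2.17 CPM in control pool 3 and 1.89 to 3.25 CPM in furosemide pool 3. Control pools averaged 1.83 ± 0.391 CPM and furosemide pools 2.16 ± 0.488 CPM (mean ± SD, n = 3 each). The log2 change was 0.24 ± 0.22 (SE), with 95% limits at -0.24 and 0.72 (adjusted p = 0.835 in edgeR). The interval ran from 0.848-fold to 1.64-fold, so a rise of 1.5-fold in Pomc was not excluded.

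**Figure D1:**
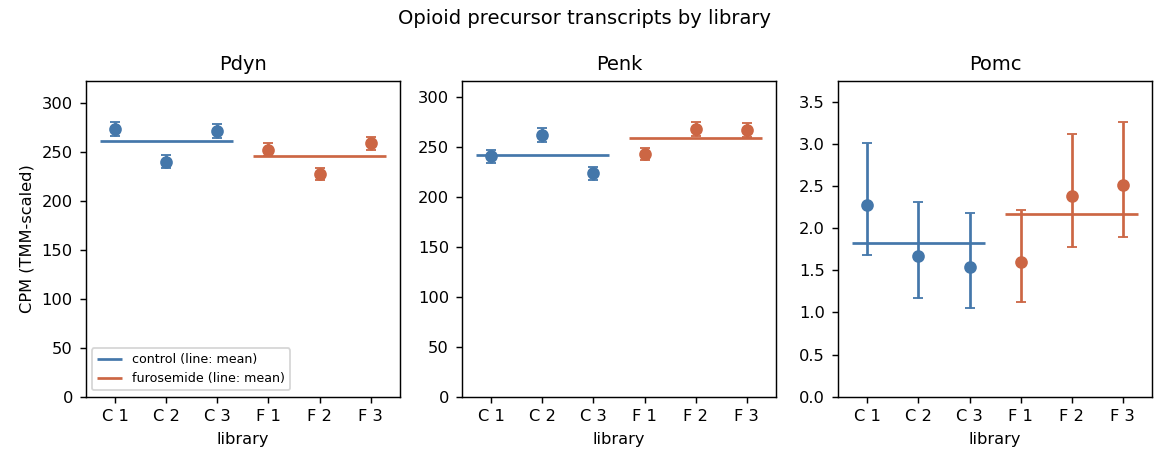
TMM-scaled CPM (y axis, from 0, a separate scale for each gene) of Pdyn, Penk and Pomc in the 3 control libraries (C) and the 3 furosemide libraries (F). Points are libraries, bars are exact Poisson 95% intervals of each count and lines are group means. Groups overlap for each gene, and the bars are short for Pdyn and Penk but wide for Pomc, where they reach from 1.05 to 3.25 CPM.

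Single pools moved the estimates more than any choice of scaling. The log2 fold change of Pdyn was -0.15 without control pool 2 and -0.03 without furosemide pool 2, the pools with the lowest Pdyn of each group. That of Penk was 0.16 without control pool 2 and 0.05 without control pool 3. For Pomc it was 0.43 without control pool 1, 0.42 without furosemide pool 1 and 0.12 without furosemide pool 3. Each member kept its direction in all 17 alternative analyses and passed the adjusted threshold in 0 of them, though DESeq2 gave Pomc no adjusted p. Before adjustment, p was under 0.05 for Pdyn in 2 alternatives, at 0.0102 without control pool 2 and 0.0268 with a replicate block (edgeR adjusted p = 0.593 and 0.605). For Penk it was so in 3, at 0.00559 without control pool 2, 0.0218 without furosemide pool 1 and 0.0386 without a filter on low counts (edgeR adjusted p = 0.549, 0.642 and 0.686). For Pomc it was so in 0.

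**Figure D2:**
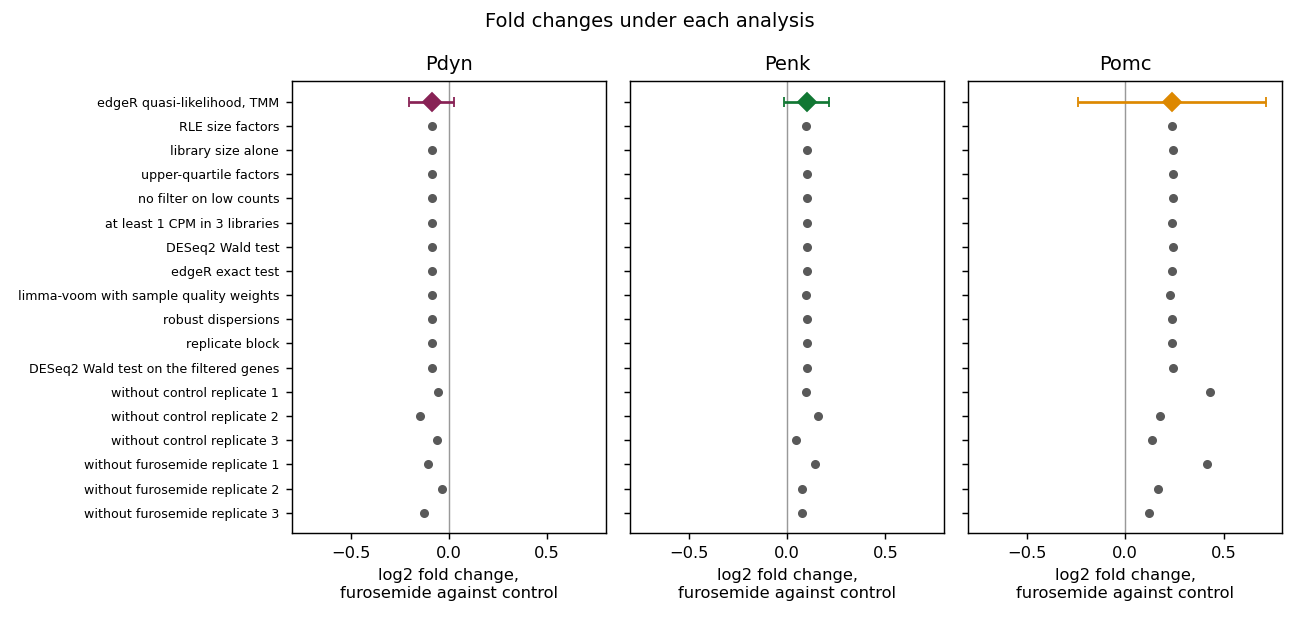
Log2 fold change, furosemide against control (x axis), of each gene under the edgeR quasi-likelihood test with TMM scaling (diamond, with its 95% interval) and under 17 alternatives (circles). The circles for other scalings, filters and tools lie close to the diamond, and those that leave out 1 library spread from -0.15 to -0.03 for Pdyn, 0.05 to 0.16 for Penk and 0.12 to 0.43 for Pomc.

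The change in each member was also set beside those of other genes. The median absolute log2 fold change was 0.06 over all tested genes. In the 2152 genes between 100 and 1000 CPM on average it was 0.03, and 189 of them (8.78%) differed by more than Pdyn and 122 (5.67%) by more than Penk. Among the 4535 genes of 1 to 10 CPM, 772 (17.0%) differed by more than Pomc. The estimated differences of Pdyn and Penk were therefore among the larger ones at their level without passing the test. Over all tested genes, 36.1% differed by more than Pdyn and 31.7% by more than Penk. The ranking by size takes no account of the spread between pools, which was also large for both. Of the genes at their level, 2.65% had a larger SD of log2 CPM between pools than Pdyn and 3.11% a larger one than Penk.

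**Figure D3:**
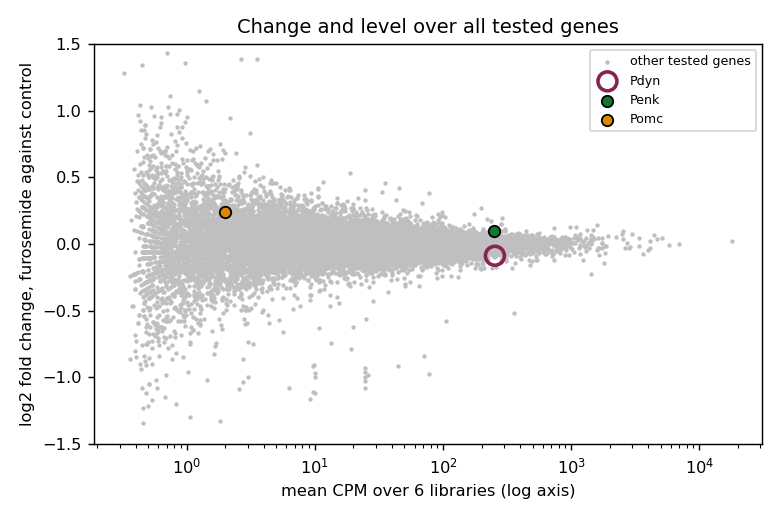
Log2 fold change, furosemide against control (y axis), against mean CPM over the 6 libraries (x axis, log scale) for all tested genes (grey), with Pdyn as a ring and Penk and Pomc as filled circles. Pdyn and Penk sit at -0.09 and 0.10 near the lower and upper edges of the grey band at their level, and 2 genes lie beyond the plotted range of 1.5 either way.

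Pdyn and Penk also varied more than most genes of their level between pools that received the same treatment. The index of dispersion, the variance between libraries of a group over the variance that counting alone gives, was 28.4 in controls and 24.9 after furosemide for Pdyn. For Penk it was 32.1 in controls and 17.1 after furosemide. The median over all tested genes, averaged over both groups, was 1.56, and over genes of 100 to 1000 CPM it was 3.31. At a given relative spread this index rises with the read count, so genes of like level are the nearer comparison. In that range 45 genes (2.09%) had a higher index than Pdyn and 54 (2.51%) a higher one than Penk. The spread between pools expressed as an SD of log2 CPM was 0.102 for Pdyn and 0.0982 for Penk, against a median of 0.0414 for genes at that level. Over all tested genes the median SD was 0.0856, and 41.6% had a larger SD than Pdyn and 43.4% a larger one than Penk. With 5193 to 5902 Pdyn reads and 4652 to 5665 Penk reads in the controls, counting error was a small part of this spread. The Poisson interval of Pdyn in control pool 2 was 234 to 247 CPM, apart from the 267 to 281 CPM of control pool 1.

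For Pomc the index of dispersion was nearer to counting error alone. It was 1.78 in controls and 2.47 after furosemide, and its SD of log2 CPM between pools was 0.311, against a median of 0.172 over genes of 1 to 10 CPM. Of these genes, 1088 (24.0%) had a higher index.

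**Figure D4:**
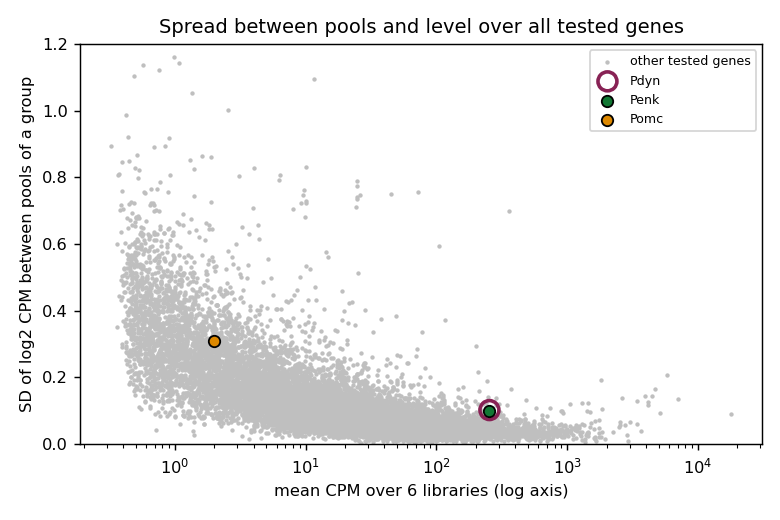
SD of log2 CPM between pools of a group (y axis) against mean CPM over the 6 libraries (x axis, log scale) for all tested genes (grey), with Pdyn as a ring and Penk and Pomc as filled circles. Pdyn and Penk, at 0.102 and 0.0982, lie on top of each other above most genes of their level, Pomc lies at 0.311, and 8 genes lie beyond the upper limit of 1.2.

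The ratio of 2 precursors inside 1 library needs no scaling between libraries and shows only whether they changed unequally. The ratio of Pdyn to Penk reads was 1.14, 0.917 and 1.21 in control pools 1, 2 and 3 and 1.04, 0.848 and 0.970 in furosemide pools 1, 2 and 3. In each group pool 2 had the lowest ratio, with the lowest Pdyn and the highest Penk of that group. Control pool 2 lay below 2 of the furosemide pools, so the groups overlapped. Its log2 value averaged 0.11 ± 0.21 over control pools and -0.08 ± 0.15 over furosemide pools (mean ± SD, n = 3 each), a difference of -0.19 (exact two-sided permutation test, p = 0.3, adjusted over the 3 ratios p = 0.45). The smallest p that 3 libraries against 3 allow is 0.1.

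The ratio of Pomc to Pdyn was higher after furosemide by 0.32 on the log2 scale, with SDs of 0.27 in controls and 0.39 after furosemide (exact permutation p = 0.3, adjusted p = 0.45, n = 3 each). That of Pomc to Penk was higher by 0.14, with SDs of 0.30 and 0.27 (exact permutation p = 0.8, adjusted p = 0.8, n = 3 each). Furosemide pool 1 had the lowest value of its group in both, and control pool 1 the highest of its group. Leaving out 1 library moved the difference in Pomc to Pdyn between 0.19 and 0.55, that in Pomc to Penk between 0.02 and 0.31 and that in Pdyn to Penk between -0.31 and -0.11. With 3 pools in each group these tests could not have passed 0.05, so whether the precursors changed unequally was not settled.

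**Figure D5:**
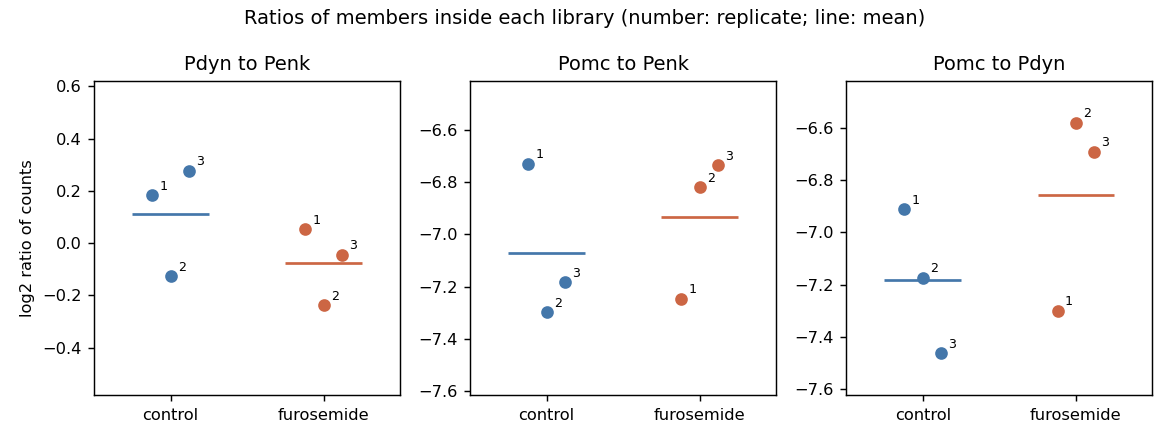
Log2 ratio of read counts of 2 genes inside each library (y axis, the same span in each panel) in the control and furosemide groups; points are libraries with their replicate number and lines are means. The groups overlap in each panel, and pool 2 has the lowest Pdyn to Penk ratio of both groups.

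The genes whose log2 CPM followed each precursor most closely over the 6 libraries were sought among the 15188 other genes that averaged 1 CPM or more. ENSRNOG00000017536 was most like Pdyn (Pearson r = 0.991), ENSRNOG00000000889 most like Penk (r = 0.988) and ENSRNOG00000018859 most like Pomc (r = 0.992). Of the 15188 genes, 103, 83 and 137 had an r over 0.9 with Pdyn, Penk and Pomc. Each named gene is thus only the highest of many values, each taken over 6 libraries. Whether these counts exceed what unrelated genes would give was not tested. The likest gene to Pdyn ranged from 56.9 to 62.2 CPM, that to Penk from 1.01 to 1.64 CPM and that to Pomc from 41.7 to 45.7 CPM. The likest gene to Penk was thus at a level as low as that of Pomc, and its counting error was not worked out. None of these 3 genes passed the edgeR test between groups (adjusted p = 0.867, 0.839 and 0.903), and neither did any other of the 16344 tested genes.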

How the data were processed

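The authors deposited raw read counts for each Ensembl gene identifier. FastQC, TopHat, HTSeq and edgeR are the tools listed in the submitters' processing notes, which give no versions here. Libraries were made with a TruSeq mRNA kit, per the labels' protocols. Genome build, annotation and strand setting were not given in the sources used here. Coordinates are left out for that reason, and reads of overlapping antisense genes cannot be told apart. The reference table matched 0 of the 32402 identifiers to symbols. The 5 pathway lists (receptors, processing, peptide breakdown, melanocortin, signalling), the 13 marker lists and the comparison of precursor proteins were therefore not run, and no sequence is shown.

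Counts were analysed in R 4.3.3 with edgeR 4.0.16: filterByExpr (16344 genes with 99.9% of counts), TMM (factors 0.994 to 1.01), and the quasi-likelihood test (legacy form) of furosemide against control over 6 libraries, adjusted by Benjamini-Hochberg over all tested genes at 0.05. Standard errors are the log2 fold change over the square root of F. The alternatives used DESeq2 1.42.0, on all 22994 genes with a count and, added after seeing the data, on the filtered genes. Others were limma-voom with sample quality weights (limma 3.58.1), the exact test and robust dispersions. Further ones were other scalings and filters, a replicate block, and each library left out. Named genes were the 3 members and, for each, the identifier with the highest correlation. The members and lists were chosen with earlier results of these data known. The spread between pools and the comparison by level were added after the values were seen. Pools are the replicates, and p-values cover spread between pools only. In the permutation tests it is the spread of the 6 libraries alone. In the quasi-likelihood test the spread used for p-values and limits is drawn toward that of other genes (moderated df 13.6). Poisson intervals cover counting error only.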

Additional observations from a re-analysis of the deposited data

How the results depend on the processing

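The log2 fold changes of Pdyn, Penk and Pomc kept their direction in all 17 alternatives. They stayed on the same side of the adjusted threshold wherever an adjusted p was given (DESeq2 gave Pomc none, with or without the filter). Leaving out 1 library gave -0.15 to -0.03 for Pdyn, 0.05 to 0.16 for Penk and 0.12 to 0.43 for Pomc. The 11 other alternatives gave -0.09 to -0.08, 0.09 to 0.10 and 0.23 to 0.24. Over all alternatives the adjusted p ran from 0.593 to 0.9999 for Pdyn, 0.549 to 0.973 for Penk and 0.657 to 0.962 for Pomc.

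The count of 0 genes called higher and 0 lower over the whole table did not hold in every setting. With no filter on low counts the quasi-likelihood test gave 12 higher and 16 lower, and DESeq2 without that filter 18 and 22. On the filtered genes the exact test gave 15 and 30, robust dispersions 3 and 1, and DESeq2 18 and 21, this last setting chosen after seeing the data. Leaving out 1 library gave 0 to 6 higher and 0 to 11 lower, the most without control 1. The cause was not tested. None of the 3 precursors was among these calls.

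With the replicate number as a block, 0 genes were higher and 1 lower, and the log2 fold changes were -0.09 for Pdyn, 0.10 for Penk and 0.24 for Pomc (edgeR adjusted p = 0.605, 0.692 and 0.885). The log2 ratio differences were -0.19 for Pdyn to Penk, 0.14 for Pomc to Penk and 0.32 for Pomc to Pdyn with and without blocking. They could not differ, because the mean difference between libraries sharing a number equals the difference in means. Blocking is therefore no check on them. Deviations from the group means correlated at -0.02, -0.01 and -0.09 between libraries that share a number, and no library was most like the one sharing its number. The labels do not say that a number marks a pair. Pomc had 32 to 56 reads per library, with indices of dispersion of 1.78 in controls and 2.47 after furosemide.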
